A study of Mus musculus with 12 samples.

Results

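Neural differentiation of wild-type (WT) mouse embryonic stem cells (ESC) was described by setting 2 RNA libraries of WT neural progenitor cells (NPC) against 2 libraries of WT ESC, which are 4 of the 12 libraries of the study. The libraries were chosen by their labels alone, and 30021 of the 55116 transcript features in the files had enough reads to be tested. The study also sequenced NPC and ESC that carry 1 altered copy of Chd8 (CHD8+/-, here HET) or altered copies of both (CHD8-/-, here KO), with 2 libraries in each group. WT cells carry neither alteration, and all ESC were grown in 2i. The labels give no derivation protocol or day for the NPC, no strain, and no count of lines or cultures behind a group. What the p-values measure is therefore the scatter among single libraries, and that scatter may be technical.

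The 2i medium holds a pair of kinase inhibitors that block differentiation signals and keep mouse ESC close to the naive state of the preimplantation embryo. Neural progenitors are dividing cells of the neural lineage that can give rise to neurons and glia, and they replace the pluripotency programme with a neural one as they form. CHD8 is a chromatin remodelling helicase, and alterations of its gene are linked to autism in people.

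The files name transcripts by UCSC-style identifiers, and 0 of these identifiers were found in the 7 reference tables at hand. The labelled cell types were therefore not checked against pluripotency or neural marker genes, and Chd8 itself was not checked. No transcript is given a gene name here. What can be read is how many transcripts changed, by how much, in which direction, at which abundance and at which length.

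Each library was quantified as estimated counts, in which reads that fit several transcripts are shared among them, so isoforms of a gene can exchange reads. The total was 12392099 and 13150215 estimated counts in the WT NPC libraries, against 9062447 and 9840544 in the WT ESC libraries, within the 9062447 to 14766212 of the whole series. The WT NPC libraries were thus the deeper ones, while in HET and in KO every NPC library was shallower than every ESC library. Levels are given as CPM, counts relative to the library total, after TMM scaling, which adjusts libraries for differences in RNA composition, or as TPM, which also divides by transcript length. Replicates were ranked alike across tested transcripts, with a Spearman correlation of log2 CPM of 0.904 between the WT NPC libraries and 0.869 between the WT ESC libraries, given as a description.

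The transition to NPC changed the level of 3652 transcripts, 12.2% of those tested, by edgeR's quasi-likelihood test at a Benjamini-Hochberg adjusted p under 0.05. Of these, 2051 were higher in WT NPC (6.83% of those tested) and 1601 were lower (5.33%), so that 56.2% of the calls were rises. This balance moved with the scaling: 76.1% of calls were rises when libraries were scaled by total counts alone, 86.0% by limma on log2(TPM + 1), and 51.2% where only transcripts averaging 10 CPM or more were tested. The number of calls rested on both NPC libraries, with 1802 without WT NPC replicate 1 and 1528 without WT NPC replicate 2, and 913 when the 4 WT libraries were fitted alone. DESeq2 called 6550. In RNA from a whole culture, more cells that make a transcript and more of that RNA per cell cannot be told apart.

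The rises were larger than the falls. The median size on the log2 scale was 1.89 for transcripts called higher and 1.22 for those called lower. The first value became 1.88 with transcripts that had no counts in 1 of the groups placed at a floor of 3 counts over that group, and the second did not move. A change of more than 2-fold was seen in 1646 of the rises (80.3%) and 1018 of the falls (63.6%). Changes past 4-fold were 969 (47.3%) and 442 (27.6%), and changes past 16-fold were 317 (15.5%) and 138 (8.62%). Among the rises, 183 transcripts had no counts in either WT ESC library, and among the falls, 56 had none in either WT NPC library. Such a transcript could be called only through the other WT group, where it had counts. The same numbers over all tested transcripts were not counted, so these describe the calls alone. The WT ESC libraries were the shallower, so the floor of 3 counts stood at 0.165 CPM there, against 0.102 CPM in WT NPC. Rises were also rarer transcripts, with a median of mean CPM of 18.04, against 31.95 for falls. The part of depth and abundance in these sizes was not tested.

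The spread between replicates gives these sizes their scale. Among the 6938 transcripts with a mean CPM of 20 or more over the WT libraries, 19.7% differed by more than 2-fold between the WT NPC and WT ESC means. Between the WT NPC libraries 2.83% did so, and between the WT ESC libraries 6.33%. Past 4-fold the shares were 6.31% for NPC against ESC, 0.461% between NPC replicates and 1.37% between ESC replicates. At that size 294 transcripts were higher in WT NPC and 144 lower. Over all tested transcripts, where low counts weigh more, 35.8% differed by more than 2-fold between the cell types, against 20.5% between NPC replicates and 26.8% between ESC replicates.

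Transcripts called higher held 15.4% and 16.3% of all counts in the WT NPC libraries, against 4.96% and 4.75% in the WT ESC libraries. Transcripts called lower held 24.2% and 22.1% in WT NPC, against 38.9% and 42.4% in WT ESC. Much of the second set was 1 transcript. Without the most abundant transcript of the series, the falling set held 12.5% and 11.99% in WT NPC, against 20.5% and 21.2% in WT ESC. These shares describe transcripts chosen on the same libraries and carry no test.

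The libraries of other genotypes, which the WT calls did not use for their means, moved the same way. For transcripts called higher in WT, the log2 fold change of NPC against ESC had a median of 1.48 in HET and 1.37 in KO. Those called lower had medians of -1.01 in HET and -0.97 in KO. Of the 2051 rises, 2012 had a positive fold change in HET (98.1%) and 1941 in KO (94.6%). Of the 1601 falls, 1579 had a negative one in HET (98.6%) and 1555 in KO (97.1%). The calls themselves recurred less fully. Of the WT calls, 1359 of the rises (66.3%) and 1022 of the falls (63.8%) were also called in HET, where 11.5% of tested transcripts were called, 6.3% as higher and 5.16% as lower. In KO 1235 of the rises (60.2%) and 985 of the falls (61.5%) were also called, where 13.0% of tested transcripts were called, 6.59% as higher and 6.42% as lower.

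The count pool was less dominated by a few transcripts in WT NPC. The most abundant transcript took 11.7% and 10.1% of counts in the WT NPC libraries, against 18.5% and 21.2% in the WT ESC libraries. The 100 most abundant took 29.0% and 28.4% in WT NPC, against 40.3% and 41.1% in WT ESC. In WT NPC 740 and 762 transcripts were needed to reach 50% of counts, against 318 and 308 in WT ESC. The groups did not overlap in any of these measures, and the difference remained when the top transcript was left out, with 1099 and 1068 transcripts needed in WT NPC, against 740 and 836 in WT ESC. More transcripts were detected at 1 TPM or above in WT NPC, 23357 and 22807, against 19182 and 20914 in WT ESC, beside the greater depth of the NPC libraries. The same direction was seen in HET and KO, where the NPC libraries were the shallower ones. All 6 NPC libraries of the series lay between 21778 and 23357, and all 6 ESC libraries between 18895 and 20914. These TPM were not scaled by TMM. By limma on log2(TPM + 1) the median WT change of all tested transcripts was 0.34, against 0.03 with TMM-scaled TPM. A fixed limit of 1 TPM could thus favour NPC, and the part of this shift was not tested. At 1 CPM or above the WT means differed by less, 1948.5 transcripts against 3034 at 1 TPM. There the 6 NPC libraries, at 23362 to 24286, still lay above the 6 ESC libraries, at 21456 to 22712.

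Because 2 libraries against 2 allow 6 arrangements, the smallest exact permutation p for WT alone is 0.333. Over the 12 libraries, with cell type permuted within genotype, 216 arrangements give a smallest two-sided exact p of 0.00926. The share of the top transcript, that of the 100 most abundant, the number of transcripts holding 50% of counts and the number at 1 TPM or above each reached that smallest exact p, with an adjusted p of 0.0114 over the 16 related measures tested.

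**Figure D1:**
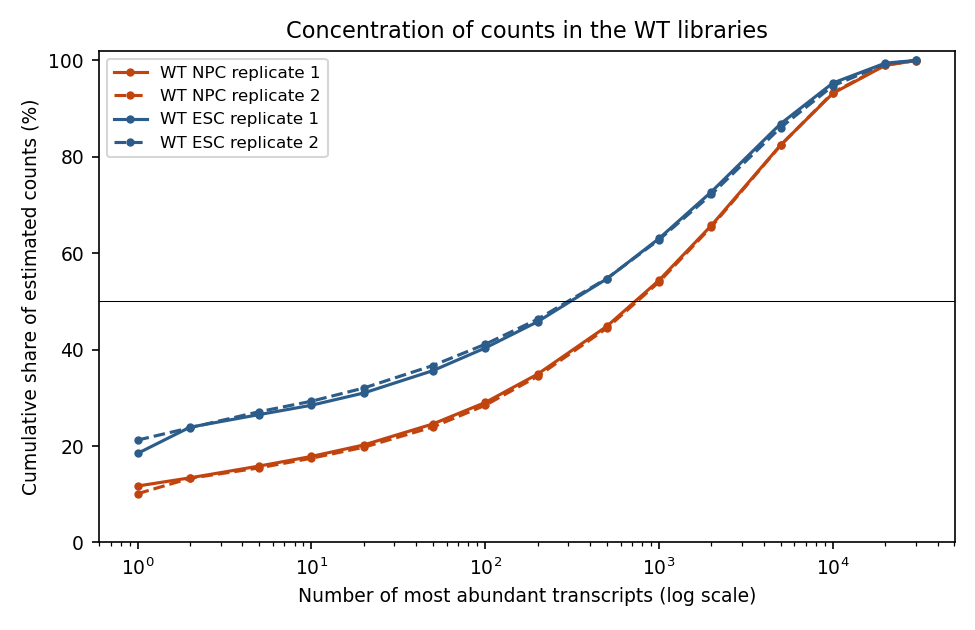
Cumulative share of estimated counts (%) held by the most abundant transcripts of each library, against their number on a log axis, with WT NPC in red and WT ESC in blue and 1 line per library. The lines of both WT NPC libraries run below those of both WT ESC libraries, and cross the horizontal line at 50% at 740 and 762 transcripts, against 318 and 308.

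Both how often a change was called and its direction went with abundance. Classes were made from the mean CPM over the 4 WT libraries, so members of a class can differ in either direction. A transcript under 1 CPM could pass the count filter (minimum count 10) through the libraries of a single group, WT or mutant. The part of the filter in that class was not tested. Below 1 CPM, 1.93% of 5922 tested transcripts were called, and at 100 CPM or more 34.7% of 1415 were. The classes between rose in order, with 5.35% at 1 to 5 CPM, 14.5% at 5 to 20 CPM and 26.5% at 20 to 100 CPM. At 20 CPM or more 28.2% were called in all, a share of 14.6% without WT NPC replicate 1 and 12.4% without WT NPC replicate 2. The typical change was not larger at high abundance. The median absolute difference of mean log2 CPM between NPC and ESC was 0.99 below 1 CPM and 0.45 at 100 CPM or more. Between replicates, which are single libraries and so scatter more than means of 2, it was 0.70 for NPC and 0.73 for ESC below 1 CPM. At 100 CPM or more it was 0.14 between NPC replicates and 0.26 between ESC replicates. The excess over the replicate spread was therefore clearest among abundant transcripts.

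Calls in rare transcripts were mostly rises and calls in the most abundant ones were mostly falls. Below 1 CPM 80 were higher in WT NPC and 34 lower, so 70.2% were rises. Members of that class could pass the count filter through a single group, so the filter may have shaped this share. The share of rises was 68.7% at 1 to 5 CPM, 61.1% at 5 to 20 CPM and 51.9% at 20 to 100 CPM. At 100 CPM or more 204 were higher and 287 lower, so 41.6% were rises. Joined at both ends, 69.0% of the calls under 5 CPM were rises, against 49.3% at 20 CPM or more. This gap of -19.5 percentage points turned to 4.45 and 5.36 by limma on unscaled TPM with pseudocounts of 1 and 0.1. In those runs 86.0% and 86.2% of all calls were rises. The gap stood at -14.4 once the TPM were scaled by TMM. It was -4.79 without WT NPC replicate 2, -8.90 without WT NPC replicate 1 and -33.3 without WT ESC replicate 2.

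**Figure D2:**
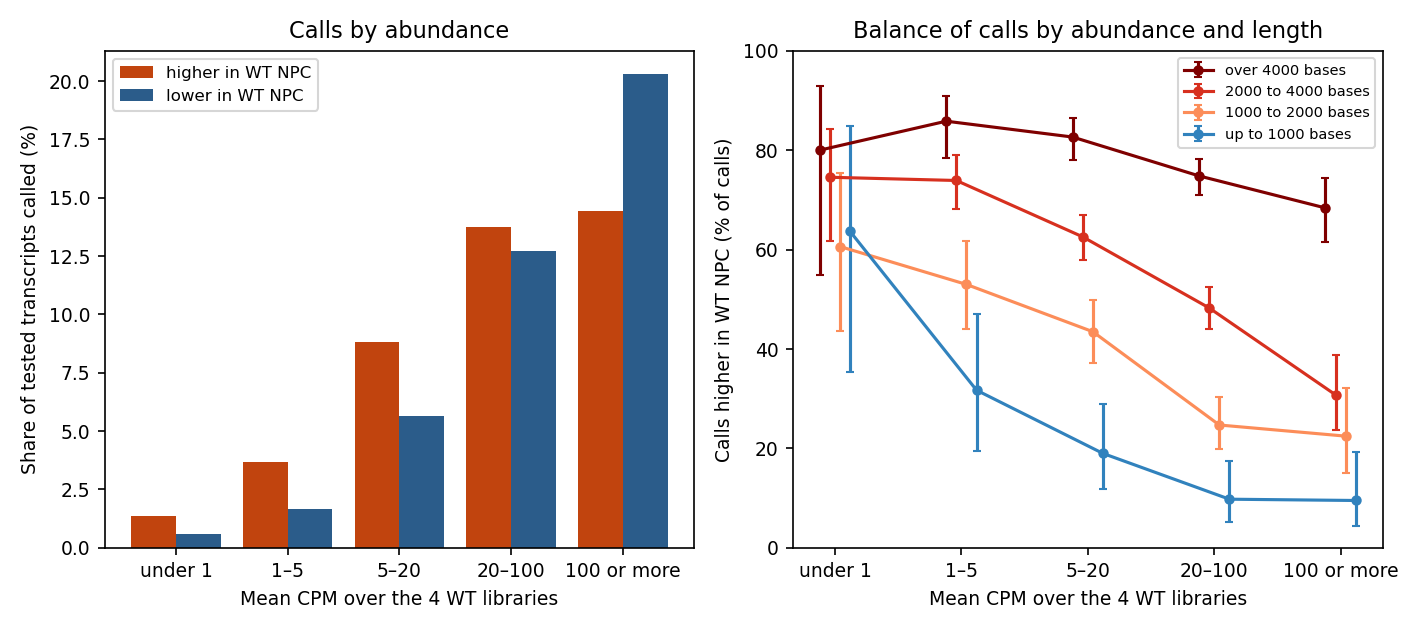
Left, share of tested transcripts (%) called higher (red) or lower (blue) in WT NPC than in WT ESC by class of mean CPM over the 4 WT libraries; right, share of the calls that were rises in 4 length classes, with 95% Wilson intervals that cover counting error only, since isoforms of a gene are not independent. The bars of both directions together climb to 34.7% at 100 CPM or more, and the line for transcripts over 4000 bases lies above that for transcripts up to 1000 bases in every abundance class.

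Direction also went with transcript length. With TMM scaling, long transcripts were mostly called higher in WT NPC and short ones mostly lower. Of 360 tested transcripts over 10000 bases, 93 were called higher and 6 lower, which is 27.5% of the class called and 93.9% of its calls rises. Of 144 tested transcripts up to 300 bases, 0 were called higher and 17 lower, which is 11.8% of the class called. These 144 were few of the 4501 features of that length in the files, whereas 360 of 422 over 10000 bases were tested. Their median length was 118 bases, less than the 172.6 to 179.5 bases between length and effective length in the WT libraries. The shortest class is thus the least securely measured. The share of rises among calls climbed through the classes between, each without its lower limit, with 18.6% at 300 to 1000 bases (50 higher, 219 lower), 36.5% at 1000 to 2000 bases (266 higher, 462 lower), 56.4% at 2000 to 4000 bases (807 higher, 625 lower) and 75.4% at 4000 to 10000 bases (835 higher, 272 lower). These shares moved with the scaling. By total counts alone rises were 38.3% of calls at 300 to 1000 bases and 59.8% at 1000 to 2000 bases, and by limma on log2(TPM + 1) 64.9% and 77.9%, beside 98.0% and 94.9% over 10000 bases. By limma on log2(TPM + 1) short transcripts of 300 to 1000 bases were thus mostly called higher too, and the share of rises still climbed with length under both. The median length was 3730 bases among transcripts called higher, 2261 among those called lower and 2758 among those not called.

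The gradient was also seen in the medians over all tested transcripts of a class, called or not. The median log2 fold change over all tested transcripts was 0.03. By length it was -0.97 up to 300 bases, -0.33 at 300 to 1000 bases, -0.12 at 1000 to 2000 bases, 0.04 at 2000 to 4000 bases, 0.26 at 4000 to 10000 bases and 0.49 over 10000 bases. Replicates were compared by differences of log2 CPM with a prior count of 2, which draws low counts together, and not by fitted fold changes. On that measure the median ratio of replicate 2 to replicate 1 in the same classes stayed between -0.05 and 0.05 for WT NPC. For WT ESC it was -0.16 at 300 to 1000 bases and 0.07 over 10000 bases, so the ESC libraries also differed by length, in smaller measure.

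The class medians depend on the scaling, and so are best read relative to all tested transcripts, whose own median was 0.29 by total counts alone and 0.34 by limma on log2(TPM + 1). Under those scalings the class of 1000 to 2000 bases had medians of 0.12 and 0.28, opposite in sign to -0.12 with TMM, and by limma on log2(TPM + 1) the class of 300 to 1000 bases stood at 0.17. Relative to all tested transcripts, the class up to 300 bases lay at -1.01 to -0.77 and the class over 10000 bases at 0.17 to 0.46 under 7 scalings and tools, with the 6 classes in the same order each time. The difference between the medians of transcripts over 4000 bases and up to 1000 bases was 0.62 with TMM. It was 0.28 by limma on log2(TPM + 1) and 0.27 with no filter on low counts.

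In HET and KO cells, whose libraries are separate, the medians also climbed from class to class, and whether the gradients of the genotypes differed was not tested. Up to 300 bases the median log2 fold change of NPC against ESC was -0.44 in HET and -0.71 in KO, beside -0.97 in WT. Over 10000 bases it was 0.60 in HET and 0.33 in KO, beside 0.49 in WT. Of the 144 transcripts up to 300 bases, 1 was called higher and 4 lower in HET, and 1 higher and 6 lower in KO, beside 0 and 17 in WT.

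**Figure D3:**
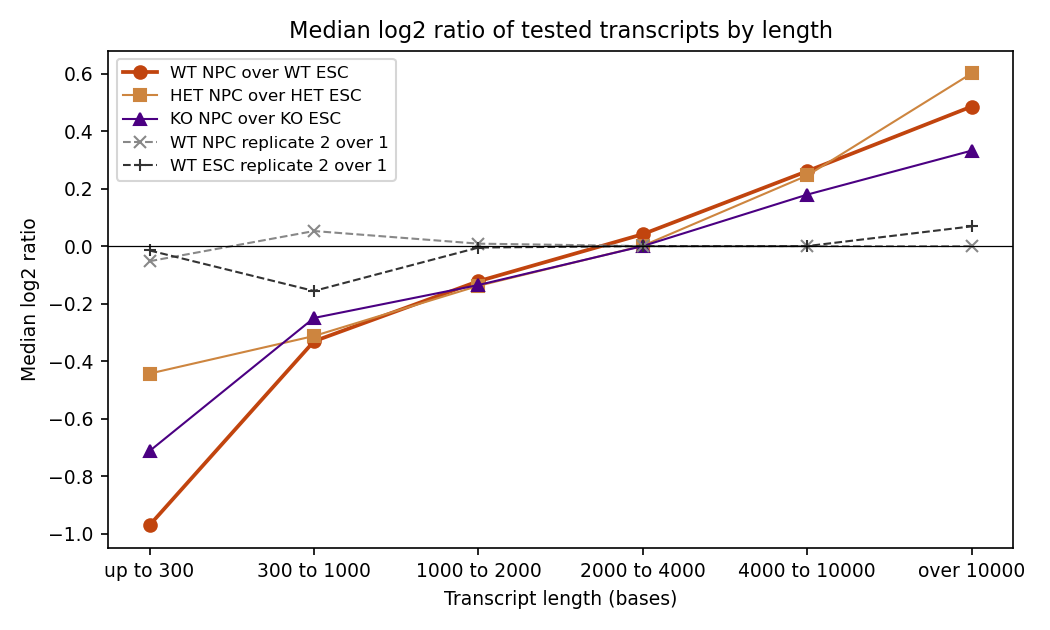
Median log2 ratio of tested transcripts in 6 classes of transcript length in bases, for NPC over ESC in WT (red), HET (brown) and KO (purple), and as dashed lines for replicate 2 over replicate 1 within WT NPC and within WT ESC. Solid lines are medians of edgeR fold changes, and dashed lines are medians of differences of log2 CPM with a prior count of 2. The 3 solid lines climb from left to right, in WT from -0.97 up to 300 bases to 0.49 over 10000 bases, while the dashed lines stay between -0.16 and 0.07.

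Length and abundance were then crossed, since short transcripts could differ in abundance from long ones. At 100 CPM or more, 6 of 133 tested transcripts up to 1000 bases were called higher in WT NPC and 57 lower, a share of 47.4% called with 9.52% rises. In the same abundance class, 134 of 588 transcripts over 4000 bases were called higher and 62 lower, a share of 33.3% called with 68.4% rises. At 20 to 100 CPM the shares of rises were 9.78% for short and 74.8% for long transcripts, at 5 to 20 CPM 19.0% and 82.6%, and at 1 to 5 CPM 31.7% and 85.8%. Below 1 CPM there were 11 calls among short and 15 among long transcripts, and most were rises in both. Of the short ones 7 were higher and 4 lower (63.6% rises), and of the long ones 12 were higher and 3 lower (80.0%). The 584 short transcripts tested in that class had a median log2 fold change of 0.0, so no typical fall was seen among them.

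Of the 4 length classes plotted, abundant transcripts up to 1000 bases had the largest typical fall. Their median log2 fold change at 100 CPM or more was -0.81 in WT, -0.52 in HET and -0.29 in KO. The WT ESC replicates differed in the same transcripts by a median of -0.33 (replicate 2 over 1), and the WT NPC replicates by 0.08. Long transcripts of this abundance had a median of 0.15 in WT, 0.08 in HET and 0.09 in KO, with -0.07 between the ESC replicates and 0.01 between the NPC replicates.

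The same shift was measured per library as the share of all counts that fell on each length class. Transcripts over 4000 bases took 32.7% and 32.8% of counts in the WT NPC libraries, against 22.9% and 23.9% in the WT ESC libraries. The mean was 32.8 ± 0.0904% in WT NPC and 23.4 ± 0.675% in WT ESC (SD, n = 2 each), a difference of 9.39 percentage points. The difference was 8.12 points in HET and 8.70 in KO. All 6 NPC libraries of the study, at 28.5% to 32.8%, lay above all 6 ESC libraries, at 19.1% to 24.2%, with an exact permutation p of 0.00926, the smallest the 12 libraries allow, and an adjusted p of 0.0114 over 16 measures.

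By share of all counts the long classes gained, and the classes of 2000 to 4000 and of 300 to 1000 bases lost. Transcripts over 10000 bases took 3.26% and 3.29% in WT NPC, against 1.99% and 2.14% in WT ESC. Transcripts of 2000 to 4000 bases took 41.1% and 39.7% in WT NPC, against 44.5% and 47.1% in WT ESC, but this class holds the most abundant transcript, uc009vew.1, and its loss rests on it. Without that transcript the class took 33.3% and 32.9% of the remaining counts in WT NPC, against 31.9% and 32.9% in WT ESC, with overlapping values and an exact permutation p of 0.194 over the 12 libraries. Those of 300 to 1000 bases took 9.18% and 10.7% in WT NPC, against 15.6% and 11.7% in WT ESC, where the ESC libraries lie far apart. Both classes reached the same adjusted exact permutation p of 0.0114, but NPC and ESC libraries of the series overlapped at 300 to 1000 bases. At 1000 to 2000 bases the shares were 16.7% and 16.6% in WT NPC, against 16.6% and 17.0% in WT ESC, with an exact permutation p of 0.833. Of the counts without uc009vew.1, however, that class took 19.0% and 18.4% in WT NPC, against 20.4% and 21.5% in WT ESC, and the class of 300 to 1000 bases took 10.4% and 11.9% in WT NPC, against 19.2% and 14.9% in WT ESC. Each then reached the smallest exact permutation p of 0.00926, and each had all 6 NPC libraries below all 6 ESC libraries.

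**Figure D4:**
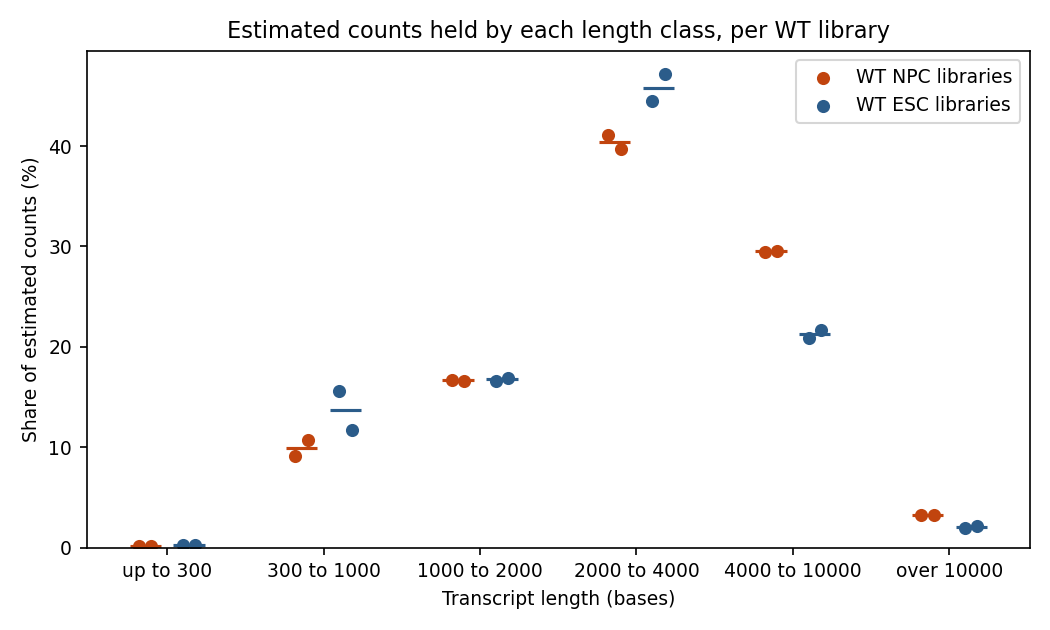
Share of estimated counts (%) held by each length class in bases, with 1 point per WT library and a bar at the mean of each group, WT NPC in red left of WT ESC in blue. At 4000 to 10000 bases both WT NPC points, 29.5% and 29.6%, lie above both WT ESC points, 20.9% and 21.7%, and at 1000 to 2000 bases all 4 points lie between 16.6% and 17.0%.

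Per molecule, in TPM, the ends of the length range shifted in the same direction as in counts, while the classes between them did not. Transcripts over 4000 bases took 9.30% and 9.12% of TPM in WT NPC, against 5.24% and 6.04% in WT ESC, with an exact permutation p of 0.00926 over the 12 libraries and an adjusted p of 0.0114. Transcripts up to 1000 bases took 43.9% and 46.2% of TPM in WT NPC, against 55.5% and 48.7% in WT ESC, with an exact permutation p of 0.0370 over the 12 libraries and an adjusted p of 0.0395. That difference was -7.05 points in WT, -3.18 in HET and -1.65 in KO, and NPC and ESC libraries overlapped within HET and within KO. Taken apart, the classes up to 300 and of 300 to 1000 bases had exact permutation p of 0.194 and 0.0741. The class of 1000 to 2000 bases gained, with 20.3% and 19.7% of TPM in WT NPC, against 16.3% and 18.2% in WT ESC. Its exact permutation p was 0.00926, not adjusted, and NPC and ESC libraries of the series overlapped. Of counts without uc009vew.1 the same class had lost. The class of 2000 to 4000 bases, which lost in counts, took 26.5% and 24.9% of TPM in WT NPC, against 23.0% and 27.0% in WT ESC. These values overlapped, with an exact permutation p of 0.343 over the 12 libraries, not adjusted. The mean length of a transcript, weighted by counts, was 3719 and 3692 bases in WT NPC, against 3112 and 3236 in WT ESC. A length index was taken over transcripts averaging 5 CPM or more, as the median log2 CPM of those over 4000 bases minus that of those up to 1000 bases, each transcript centred on its mean over the 12 libraries. It was 0.53 and 0.45 in WT NPC, against -0.43 and -0.05 in WT ESC. The WT difference in this index, 0.73, was more than the gap of the ESC libraries.

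Fragment size was read from the files for every library. The difference between length and effective length, which tracks the fragment size kallisto assumed, was 172.6 and 175.2 bases in WT NPC, against 179.5 and 174.1 in WT ESC. In KO it was higher in NPC (181.0 and 180.1) than in ESC (174.6 and 173.6), and in HET lower in NPC (165.6 and 168.6) than in ESC (181.8 and 172.2). The part of fragment size in the length pattern was not tested.

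The transcripts named here were picked by rule from the 1609 rises and 1402 falls with a mean CPM of at least 5 and no overlap between the WT groups: in each direction the one with the largest fold change and the one with the largest difference in CPM. Among the rises with the largest fold, uc009kod.2 (3691 bases) had 89.2 and 258.0 CPM in WT NPC and no counts in either WT ESC library. It was at least 1049-fold higher in WT NPC, taking 3 counts over the ESC group as the floor, with an adjusted p of 0.00579 by edgeR's quasi-likelihood test. The bound was 1560-fold without WT NPC replicate 1, 539-fold without WT NPC replicate 2, and 561-fold and 489-fold without WT ESC replicate 1 or 2. In the other genotypes it had 40.9 and 58.0 CPM in HET NPC, against 3.44 and 4.27 in HET ESC, and 11.6 and 16.6 CPM in KO NPC, against 2.69 and 0 in KO ESC. The call was lost when the WT libraries were fitted alone, with an edgeR adjusted p of 0.0574.

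The largest gain in CPM was that of uc007msi.1 (1931 bases). It had 4339 and 4072 CPM in WT NPC, against 1173 and 1316 in WT ESC, a log2 fold change of 1.76 (SE 0.14) with an adjusted p of 0.000369 by edgeR's quasi-likelihood test. The naming rule required that the WT groups did not overlap, and the gap between them was far more than that between replicates. In HET it had 3559 and 3299 CPM in NPC, against 1807 and 1814 in ESC, a log2 fold change of 0.92 (edgeR adjusted p = 0.00447). In KO it had 2203 and 2857 CPM in NPC, against 2000 and 1947 in ESC, a log2 fold change of 0.36 that did not pass the test (edgeR adjusted p = 0.133). The difference between the WT and KO changes, 1.40 on the log2 scale, did not pass either (edgeR adjusted p = 0.134).

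Among the falls, uc009mzd.2 (8373 bases) rounded to 0 counts in both WT NPC libraries, against 60.8 and 41.4 CPM in WT ESC. It was at least 500-fold lower in WT NPC, with the same floor. That bound was 256-fold and 244-fold without WT NPC replicate 1 or 2. Its adjusted p was 0.00185 by edgeR's quasi-likelihood test. Both KO NPC libraries were also at 0, against 35.7 and 47.1 CPM in KO ESC. In HET NPC it had 15.1 and 11.4 CPM, against 18.0 and 51.6 in HET ESC, and edgeR's adjusted p there was 0.159.

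The most abundant transcript of the series, uc009vew.1 (2555 bases), had the largest loss in CPM. It had 101397 and 88808 CPM in WT NPC, against 198488 and 215976 in WT ESC. The log2 fold change was -1.12 (SE 0.28) with an adjusted p of 0.0366 by edgeR's quasi-likelihood test. This call was fragile: over 16 alternatives the fold change lay between -1.20 and -0.61, and 7 of them lost the call, with edgeR adjusted p of 0.134 without WT NPC replicate 1, 0.205 without WT NPC replicate 2, 0.0902 when WT ESC replicate 1 was left out and 0.123 for WT ESC replicate 2. The log2 fold change was -0.95 in HET (edgeR adjusted p = 0.066) and -1.36 in KO (edgeR adjusted p = 0.0168).

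**Figure D5:**
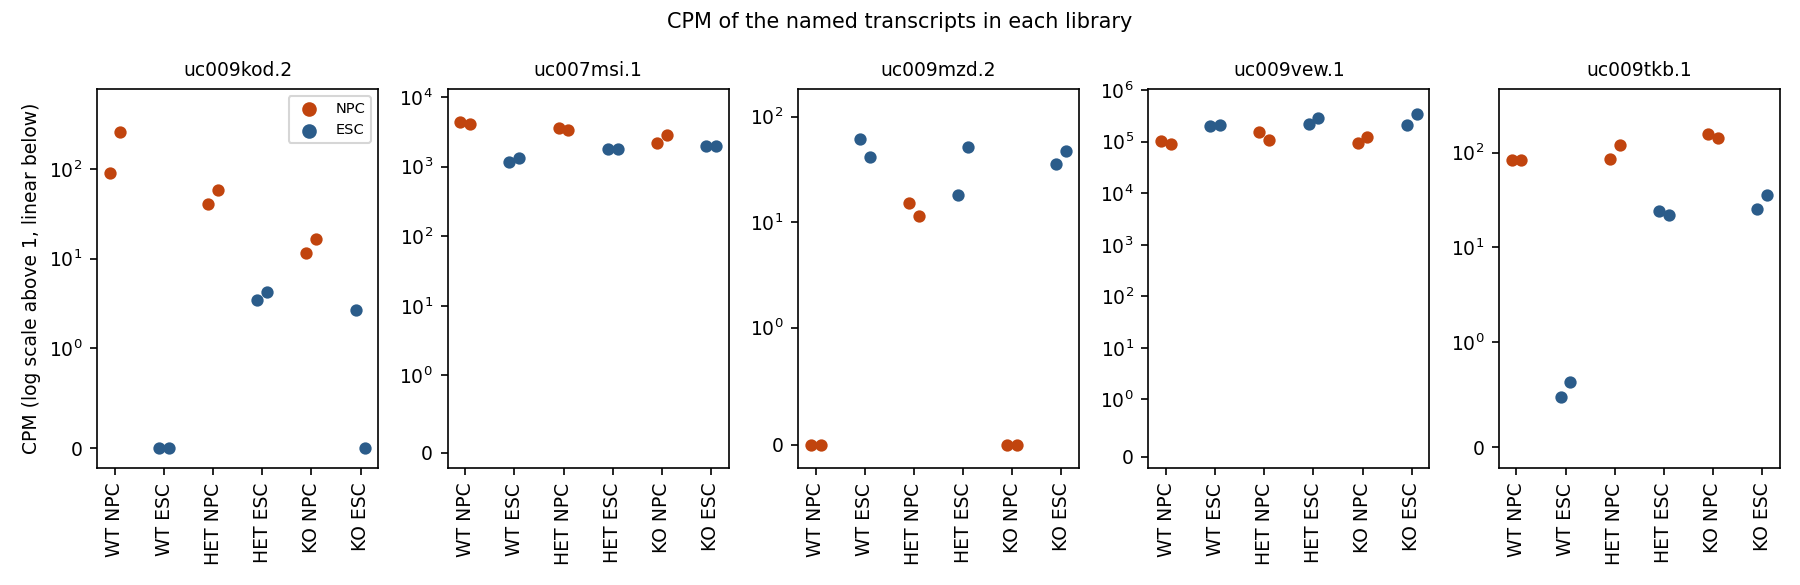
CPM of the 4 transcripts named by rule and of uc009tkb.1 in every library, 1 panel per transcript and 1 point per library, NPC in red left of ESC in blue within each genotype, on an axis that is logarithmic above 1 CPM and linear below. In each panel the WT NPC points do not overlap the WT ESC points, which the naming rule required of the 4. The transcript uc009tkb.1 is low in both WT ESC libraries alone, at 0.474 and 0.620 CPM.

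Whether the change on differentiation differed between WT and mutant cells was tested for every transcript. By edgeR's quasi-likelihood test 1 transcript passed against HET (0.00333% of those tested) and 1 against KO (0.00333%), in each case with the larger change in WT. At an unadjusted p under 0.05, 1567 passed against HET (5.22%) and 2750 against KO (9.16%). Both calls were of the same transcript, uc009tkb.1 (1545 bases), which was named for this count of 1 after its values were seen. It had 82.7 and 83.8 CPM in WT NPC, against 0.474 and 0.620 in WT ESC, a log2 fold change of 7.21 (SE 0.30) with an edgeR adjusted p of 2.7e-05.

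In HET the same transcript had 86.6 and 121 CPM in NPC, against 24.4 and 22.0 in ESC, and in KO 157 and 143 in NPC, against 25.2 and 35.4 in ESC. Its log2 fold change was 2.16 in HET and 2.30 in KO. The NPC levels of the genotypes were within 2-fold of each other and the ESC levels were not. The number of such calls depended on the libraries and the tool: DESeq2 called 264 against HET and 984 against KO. Without WT ESC replicate 2 edgeR called 6 and 30, and without either WT NPC library it called 0 in both. Against HET it called 0 without HET NPC replicate 1, 2 without HET ESC replicate 1 and 3 without HET ESC replicate 2. Against KO it called 0 without KO ESC replicate 2 and 2 without WT ESC replicate 1, and 3 when KO ESC replicate 1 was left out. A count of 1 therefore does not show that other transcripts changed alike in WT and mutant cells.

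Where neighbouring tested transcripts were both called in WT, the direction was more often the same than opposite. Neighbours were taken in file order among tested transcripts, so untested ones between them were skipped. Of all tested transcripts 12.2% were called, and 56.2% of calls were rises. The agreement that this balance alone would give was not tested. The files do not say what the order follows. Of neighbouring tested pairs in which both were called, 540 were called in the same direction and 138 in opposite ones. When transcripts averaging 2 CPM or more were cut into 198 blocks of 100 neighbours, the block medians of the WT NPC against ESC log2 ratio had an SD of 0.142 and ran from -0.445 to 0.385. Between replicates, as differences of log2 CPM with a prior count of 2 rather than fitted fold changes, the SD was 0.072 in WT NPC. In WT ESC it was 0.0923, and a block reached -0.482. The SD of the fitted NPC against ESC change was 0.124 in HET and 0.178 in KO. Isoforms of a gene and members of a gene family that stand side by side share reads, so neighbours are not independent.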

How the data were processed

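RNA of 12 libraries was analysed, 4 of them WT. Stranded SMARTer libraries were made from total RNA depleted of ribosomal RNA, per the labels' protocols. The submitters' processing notes name cutadapt 1.16, kallisto with no version stated, and the build mm9. For each of 55419 transcripts the authors deposited an estimated count and a TPM value beside the length and effective length, per the file headers. Transcripts of equal length whose counts were equal to 2 decimals in every library (495 in 192 sets) were merged, which left 55116 features.

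Estimated counts were rounded, kept where they passed filterByExpr (minimum count 10), scaled by TMM and tested with edgeR 4.0.16 in R 4.3.3 by the quasi-likelihood test (robust, 1 mean per group, all 12 libraries, 6 residual degrees of freedom). The threshold was a Benjamini-Hochberg adjusted p of 0.05, two-sided. The common dispersion was 0.35, a coefficient of variation of 0.592. Ratios between replicates are differences of log2 CPM with a prior count of 2, while class and block medians of NPC against ESC are edgeR fold changes. DESeq2 1.42.0 and limma 3.58.1 on the deposited TPM were alternatives. Values per library were compared by exact permutation. The edgeR fit was also run on simulated counts, drawn from means and dispersions fitted to these data, and no result of that run is given here. Intervals and floors cover counting error only.

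Sums per gene, marker lists and the level of Chd8 were planned but not run, since identifiers could not be paired with genes. Genes with many isoforms may thus enter a count repeatedly. Transcripts were named where the edgeR call held, the mean CPM was at least 5 and the WT groups did not overlap: per direction, the largest fold change and the largest difference in CPM, plus the most abundant transcript. The members, classes and lists were chosen with earlier results of these data known. The thinning of counts, the TMM-scaled TPM and the naming of uc009tkb.1 were added after seeing the data.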

Additional observations from a re-analysis of the deposited data

Results flagged for a closer look

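The change of uc009tkb.1 (1545 bases) on differentiation differed between genotypes by a test of the difference itself. It had 82.7 and 83.8 CPM in WT NPC, against 0.474 and 0.620 in WT ESC. The log2 fold change of NPC against ESC was larger by 5.05 in WT than in HET (SE 0.37, edgeR quasi-likelihood adjusted p = 0.0207) and by 4.91 in WT than in KO (SE 0.37, edgeR adjusted p = 0.0256). The difference lay in the ESC, where both WT libraries were under 1 CPM and the 4 HET and KO libraries were between 22.0 and 35.4 CPM. Within WT, the fold change kept its direction and its call under all 17 alternatives, with log2 values of 5.85 to 7.54. No transcript passed either test of a difference without WT NPC replicate 1, without WT NPC replicate 2 or with the replicate number as a block.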

How the results depend on the processing

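Alternatives with replicates left out, other scalings, filters and tools were run 1 at a time. The 3652 calls in WT NPC against WT ESC became 6550 with DESeq2, 913 with the WT libraries alone, 5765 and 6288 by limma on log2(TPM + 0.1) and log2(TPM + 1), and 1528 to 2592 with 1 WT library left out; by DESeq2 size factors, total counts, TMM without the top transcript, thinning to the smallest library and both count filters they stayed within 1.5 times. Rises made up 56.2% of calls, but 53.0% with DESeq2, 67.5% with the WT libraries alone, 86.2% and 86.0% by limma on log2(TPM + 0.1) and log2(TPM + 1), 51.2% where the mean CPM was 10 or more, 61.4% with no filter, 76.1% by total counts and 55.3% to 65.5% with 1 WT library left out.

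The median log2 fold change over 4000 bases minus that up to 1000 bases was 0.618 and positive in every alternative run: 0.42 by limma on TMM-scaled TPM, 0.279 on log2(TPM + 1), 0.268 with no filter, 0.382 between the end classes of 6 classes of equal size, and 0.428 to 0.737 with 1 WT library left out. The share called at 20 CPM or more was 28.2%, and 42.3% with DESeq2, 7.87% with the WT libraries alone, 29.4%, 34.9% and 36.2% by limma on TMM-scaled TPM, log2(TPM + 0.1) and log2(TPM + 1), 37.2% where the mean CPM was 10 or more, 24.3% with no filter, 26.1% by total counts and 12.4% to 20.2% with 1 WT library left out. The gap in rises between 20 CPM or more and under 5 CPM was -19.5 points. It was -14.8 with DESeq2, -8.85 with the WT libraries alone, -14.4 on TMM-scaled TPM, -4.82 by total counts, -33.2 by classes of mean TPM and -33.3 to -4.79 with 1 WT library left out. It was reversed, at 5.36 and 4.45, by limma on log2(TPM + 0.1) and log2(TPM + 1), where the cause was not tested.

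The share of counts over 4000 bases differed by 9.39 points, and by 7.60 to 9.87 points in the alternatives on counts and 3.57 points of TPM, each at the smallest exact permutation p of 0.00926. The WT and HET changes differed in 1 transcript, in 264 with DESeq2, 3 on log2(TPM + 0.1) and 0 to 6 with 1 library left out. The WT and KO changes differed in 1, in 984 with DESeq2, 2 on log2(TPM + 1) and 0 to 30 with 1 library left out.

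No shared effect of the replicate number was visible. Deviations of same-numbered NPC and ESC libraries from their group means correlated at -0.0509 in WT, -0.0192 in HET and 0.013 in KO. With 2 libraries a group this cannot settle whether libraries were handled in pairs. The replicate block, fitted for completeness, gave 3152 calls, a share of 25.8% called at 20 CPM or more, and 0 transcripts whose change differed from HET or from KO.

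With 2 libraries a group and a coefficient of variation of 0.592, a transcript that was not called is not shown to be unchanged. Thinning every library to the smallest total gave 3609 calls. Where 1 library of a group was left out, the lone library was assumed to vary like the other groups.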
